A study of Mus musculus with 8 samples.

Results

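The Toll-like receptor adaptors and proximal kinases are 10 genes: Myd88, Tirap, Ticam1, Ticam2, Irak1, Irak2, Irak3, Irak4, Traf6 and Map3k7. They were taken by name from a table of 23366 genes, and all 10 passed the filter on low values. In textbook accounts, a Toll-like receptor that meets its ligand recruits adaptor proteins through shared TIR domains. For TLR4, the receptor for lipopolysaccharide (LPS) of Gram-negative bacteria, TIRAP brings in MyD88 at the plasma membrane, and TICAM2 (TRAM) brings in TICAM1 (TRIF) at endosomes. MyD88 assembles IRAK4 with IRAK1 and IRAK2, which activate the ubiquitin ligase TRAF6 and through it the kinase TAK1, the product of Map3k7. TAK1 then switches on the NF-kB and MAP kinase pathways, and IRAK-M, the product of Irak3, is known as a brake on this chain in macrophages.

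The 8 RNA-seq libraries came from macrophages grown from C57BL/6 bone marrow, at passage 1 and kept without serum for 24 h. The 4 groups were Lsd1SA/SA knock-in cells with LPS for 2 h, untreated knock-in cells, wild-type cells with LPS for 2 h, and untreated wild-type cells, with 2 libraries each. The knock-in is described in the labels as a phosphorylation-defective form of LSD1, a histone demethylase encoded by Kdm1a, and the labelled LPS dose is 1 mg/ml. The design asks what LPS did in each genotype and whether the genotypes differed without and with LPS. The labels do not tell if the 2 libraries of a group are from different mice or cultures. The p-values therefore reflect library-to-library spread alone, which may be technical.

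Each library held 40379258 to 55595160 reads, and the 10 genes had 688 to 11160 reads per library. Levels are TMM-scaled CPM, that is CPM (counts per unit of library size) after a scaling of library size by the authors. Replicates of these genes differed by a coefficient of variation of at most 8.03%. Of 9 listed macrophage markers 8 were in the table, among them Csf1r, Emr1, Cd68, Itgam, Fcgr1, Mertk and Lyz2, and the 8 had summed levels of 12272 to 15827. The knock-in libraries with LPS stood apart from the other 6. Xist, transcribed from the inactive X chromosome, was at 0.212 and 0.366 there and at 315 to 437 in the other 6 libraries, and 4 Y-linked genes together had at least 4993 reads there and at most 2 elsewhere. By these genes the knock-in LPS libraries were male and the rest female, so every comparison that uses them contrasts sex as well as the labelled condition, and these cannot be told apart. The labels give no sex, and a gene-level table cannot show the Lsd1 substitution. Whether these libraries hold the cells and treatment on their labels is therefore in doubt and could not be checked, and "knock-in with LPS" here means the libraries labelled so. Summed stromal markers were at 53.3 and 53.7 in the same libraries, against 15.9 and 16.9 in untreated knock-in cells, and 5 of the 5 tested members of that list of 6 rose. Summed neutrophil markers were at 447 and 457 there, against 351 and 358 in untreated knock-in cells, and at 747 and 767 in wild type with LPS, against 351 and 359 untreated. None of the listed stromal or neutrophil markers found in the table was at 0 in all libraries, and their part in the results below was not tested. In such bulk samples, fewer cells of a type and less RNA per cell cannot be told apart. Dendritic cell markers summed to at most 6.10, B and T cell markers to at most 11.9 and erythroid markers to at most 1.17.

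Promoter windows from RefSeq (GRCm38.p6) were used for 9 of the 10 genes, all but Ticam2. Each runs from 250 bases before to 50 bases after the start of transcription. Of these, 4 are shown because their genes span the range of responses described next. They are those of Irak2 and Ticam1, whose transcripts rose most with LPS in wild type among these 9 genes, of Myd88, the shared adaptor, and of Map3k7, which moved little. Capitals mark matches, on either strand, to a kB motif, to the core of an interferon-stimulated response element (GAAA, any 2 bases, then GAAA) or to an E-box (CACGTG), and an AP-1 motif (TGANTCA) was searched as well. The matches to different motifs did not overlap in these windows. The windows lie at chr6:113638217-113638516 on the plus strand for Irak2, at chr17:56276718-56277017 on the minus strand for Ticam1, at chr9:119339969-119340268 on the minus strand for Myd88, and at chr4:31963857-31964156 on the plus strand for Map3k7.
Irak2: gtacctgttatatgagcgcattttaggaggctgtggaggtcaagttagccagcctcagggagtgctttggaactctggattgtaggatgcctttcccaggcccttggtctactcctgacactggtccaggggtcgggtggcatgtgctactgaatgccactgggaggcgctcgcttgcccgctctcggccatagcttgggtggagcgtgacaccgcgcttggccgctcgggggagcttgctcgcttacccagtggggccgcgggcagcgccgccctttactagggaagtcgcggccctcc
Ticam1: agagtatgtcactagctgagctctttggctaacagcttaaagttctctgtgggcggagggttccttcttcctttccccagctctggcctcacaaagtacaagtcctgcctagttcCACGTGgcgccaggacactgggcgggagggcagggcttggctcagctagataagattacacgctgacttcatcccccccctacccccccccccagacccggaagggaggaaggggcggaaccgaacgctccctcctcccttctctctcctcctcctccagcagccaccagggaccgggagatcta
Myd88: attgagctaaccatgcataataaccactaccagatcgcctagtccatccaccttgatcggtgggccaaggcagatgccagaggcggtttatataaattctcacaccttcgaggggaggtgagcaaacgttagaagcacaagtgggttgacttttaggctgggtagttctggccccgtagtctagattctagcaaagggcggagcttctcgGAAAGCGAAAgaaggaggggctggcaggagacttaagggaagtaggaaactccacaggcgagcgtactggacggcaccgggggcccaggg
Map3k7: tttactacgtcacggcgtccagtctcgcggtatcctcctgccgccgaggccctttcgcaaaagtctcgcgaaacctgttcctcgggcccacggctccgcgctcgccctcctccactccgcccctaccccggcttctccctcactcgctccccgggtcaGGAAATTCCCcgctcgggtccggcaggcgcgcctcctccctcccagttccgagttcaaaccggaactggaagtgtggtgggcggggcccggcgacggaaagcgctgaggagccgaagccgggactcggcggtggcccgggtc
The Irak2 window held none of the 4 motifs. Ticam1 had an E-box beginning at position -135 from the start of transcription, Myd88 the interferon element core at -40, and Map3k7 a kB motif at -92. Among the other windows, both of Irak1 held a kB motif and the more downstream of the Irak3 starts an E-box, while those of Tirap, Irak4 and Traf6 held none. Of 32851 mouse promoter windows of this length, 8.46% held the kB motif, 3.44% the interferon element core, 7.81% the AP-1 motif and 7.15% the E-box. A match describes letters only and not a site in use.

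Among the adaptors, Ticam1, Ticam2 and Myd88 rose with LPS in both genotypes and far more in wild type, while Tirap passed in the knock-in and not in wild type, without a difference between the genotypes that passed the test. Over the 10 genes, standard errors of the log2 changes were 0.0490 to 0.0806. Myd88, which serves all Toll-like receptors but TLR3, was at 119 and 119 in knock-in cells with LPS, against 89.6 and 88.3 in untreated knock-in cells. In wild type it was at 171 and 181 with LPS, against 86.5 and 87.1 untreated. The groups did not overlap in either genotype, and the LPS libraries of the knock-in lay between those of untreated cells and wild type with LPS. The log2 change was 0.42 in the knock-in (SE 0.0494, limma adjusted p = 1.36e-07) and 1.01 in wild type (limma adjusted p = 6.63e-15). Of the annotated exon bases of Myd88, 11.3% are shared with Acaa1a on the opposite strand, whose own level was 72.6 and 73.9 in knock-in cells with LPS and 53.2 to 67.5 in the other libraries.

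Ticam1 encodes TRIF, the adaptor of the branch that leads to type I interferon. Its level was 58.0 and 63.4 in knock-in cells with LPS, against 49.7 and 51.0 untreated, and 144 and 142 in wild type with LPS, against 51.2 and 50.3 untreated. All 4 LPS libraries were above the 4 untreated ones, the wild-type pair by more than the knock-in pair. It rose by 0.26 on the log2 scale in the knock-in (limma adjusted p = 3.38e-04) and by 1.48 in wild type (limma adjusted p = 3.51e-17). Ticam2 encodes the sorting adaptor that links TRIF to TLR4. It was at 45.2 and 40.3 in knock-in cells with LPS, against 32.1 and 34.6 untreated, and at 95.3 and 104 in wild type with LPS, against 32.8 and 35.5 untreated. Its groups did not overlap, and its log2 changes were 0.35 in the knock-in (limma adjusted p = 1.52e-04) and 1.52 in wild type (limma adjusted p = 1.33e-15), where the mean was 2.91-fold the untreated one. Ticam2 shares 14.5% of its exon bases with Tmed7 on the same strand, so some reads of the pair may be assigned to either. Tmed7 itself was at 99.98 and 97.8 in knock-in cells with LPS, against 112 and 111 untreated, and at 132 and 126 in wild type with LPS, against 117 and 117 untreated.

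Tirap, the adaptor that ferries MyD88 to TLR2 and TLR4, was the lowest of the 10 genes. It was at 20.2 and 20.3 in knock-in cells with LPS, against 15.8 and 15.9 untreated, and at 18.5 and 20.4 in wild type with LPS, against 17.2 and 18.3 untreated. The knock-in groups were well apart, while the lower wild-type LPS library was close to the higher untreated one. The log2 change was 0.34 in the knock-in (limma adjusted p = 0.00112). In wild type it was 0.12 and did not pass (95% interval -0.044 to 0.29, limma adjusted p = 0.202). Tirap shares 9.05% of its exon bases with the predicted gene Gm39318 on the opposite strand.

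**Figure D1:**
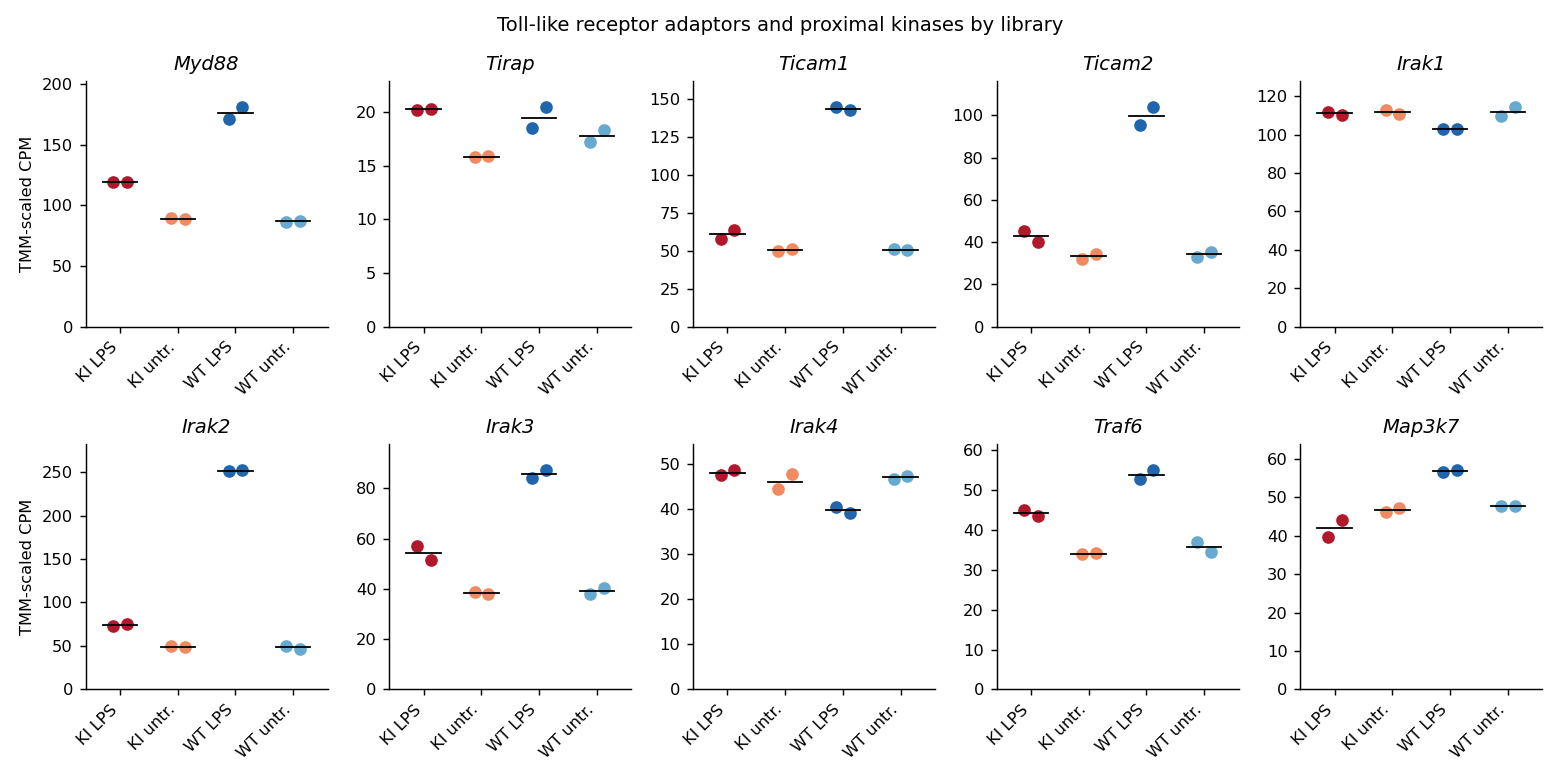
Level of each of the 10 genes in TMM-scaled CPM (vertical axis, from 0) in the 8 libraries: knock-in with LPS, untreated knock-in, wild type with LPS and untreated wild type, from left to right. Points are libraries and lines are group means; Irak2 shows the largest step, at 251 and 252 in wild type with LPS and 72.7 and 75.4 in the knock-in with LPS.

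Among the IRAK kinases, Irak2 and Irak3 rose with LPS in both genotypes, and Irak1 and Irak4 were near their untreated levels or slightly lower. Irak2 encodes the kinase-family member linked to sustained signalling after the first minutes of a TLR response. It was at 72.7 and 75.4 in knock-in cells with LPS, against 49.4 and 49.0 untreated, and at 251 and 252 in wild type with LPS, against 50.1 and 46.7 untreated. No other gene of the 10 moved as far, with 5.20-fold the untreated mean in wild type and 1.51-fold in the knock-in. On the log2 scale these were 2.36 (limma adjusted p = 7.72e-22) for wild type and 0.58 (limma adjusted p = 1.91e-09) for the knock-in.

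Irak3, the braking member of the family, was at 57.2 and 51.6 in knock-in cells with LPS, against 38.7 and 38.1 untreated. In wild type it was at 84.0 and 87.3 with LPS, against 38.0 and 40.4 untreated. Both LPS pairs were above every untreated library. The log2 change was 0.49 in the knock-in (limma adjusted p = 3.86e-07) and 1.11 in wild type (limma adjusted p = 9.65e-14). Of its exon bases 5.22% are shared with Tmbim4 on the opposite strand, whose level was 102 and 104 in knock-in cells with LPS and 55.3 to 69.2 in the other libraries.

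Irak1 and Irak4 encode the kinases present in the first signalling complex. Irak4, the kinase that starts the cascade, was at 47.4 and 48.6 in knock-in cells with LPS, against 44.4 and 47.6 untreated, groups that overlapped. In wild type it was at 40.3 and 39.0 with LPS, against 46.7 and 47.2 untreated, and fell (log2 change -0.24, limma adjusted p = 0.00170). In the knock-in its change was 0.061 and did not pass (95% interval -0.064 to 0.19, limma adjusted p = 0.409). Irak4 shares 7.87% of its exon bases with Twf1 on the opposite strand. Irak1, which IRAK4 phosphorylates, lies on the X chromosome. It was at 112 and 110.4 in knock-in cells with LPS, against 113 and 111 untreated, and at 103 and 103 in wild type with LPS, against 109.8 and 114 untreated. The wild-type difference was small and narrowly passed (log2 change -0.12, limma adjusted p = 0.0384, between 6.30e-07 and 0.170 over the alternatives). That call was lost with edgeR, DESeq2 and median-of-ratios scaling, in a fit of the wild-type groups alone (adjusted p = 0.0778), and without any 1 library other than replicate 1 of untreated wild type, while quantile normalization gave -0.39. In the knock-in the change of Irak1 was -0.0078 (95% interval -0.11 to 0.094, limma adjusted p = 0.906).

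Of the steps after the IRAK kinases, Traf6 rose in both genotypes, and Map3k7 moved by at most 0.25 on the log2 scale in either. Traf6, whose product builds the ubiquitin chains that activate TAK1, was at 45.1 and 43.5 in knock-in cells with LPS, against 33.9 and 34.2 untreated. In wild type it was at 52.7 and 55.1 with LPS, against 37.1 and 34.5 untreated. No LPS library overlapped an untreated one, and the log2 changes were 0.37 in the knock-in (limma adjusted p = 2.55e-05) and 0.58 in wild type (limma adjusted p = 2.29e-08). Map3k7 was at 39.7 and 44.2 in knock-in cells with LPS, against 46.1 and 47.4 untreated, and at 56.7 and 57.2 in wild type with LPS, against 47.8 and 47.7 untreated. It was the one gene of the 10 whose called changes ran in opposite directions, at -0.15 in the knock-in (limma adjusted p = 0.0357, range over all alternatives 0.0118 to 0.403) and 0.25 in wild type (limma adjusted p = 0.00125, range 1.21e-04 to 0.102). The knock-in call was lost with DESeq2, with median-of-ratios scaling, with no filter, and without knock-in LPS replicate 1 (change -0.080), untreated knock-in replicate 1 or untreated knock-in replicate 2. The wild-type call was lost after quantile normalization (0.12).

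Counted over the 10 genes, LPS gave 7 higher, 1 lower and 2 not called in the knock-in, and 7 higher, 2 lower and 1 not called in wild type. Over all 11919 genes tested, 28.5% were called higher and 28.3% lower in the knock-in, and 26.8% higher and 30.7% lower in wild type. In wild type, 46.6% of all calls were higher as deposited and 35.4% after quantile normalization. The share was 52.0% with median-of-ratios scaling, 51.6% by edgeR and 51.7% by DESeq2. The median log2 change of the 10 genes was 0.34 in the knock-in and 0.79 in wild type, beside 0.016 and -0.032 over all genes tested. The groups did not overlap for 8 of the 10 in the knock-in, where 79.2% of all genes tested did not, and for 10 of the 10 in wild type, where 76.1% did not. Without the knock-in libraries, a fit of the wild-type groups alone called 8 of the 10. That fit also called most of all genes tested, so the count alone does not set the 10 genes apart.

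**Figure D2:**
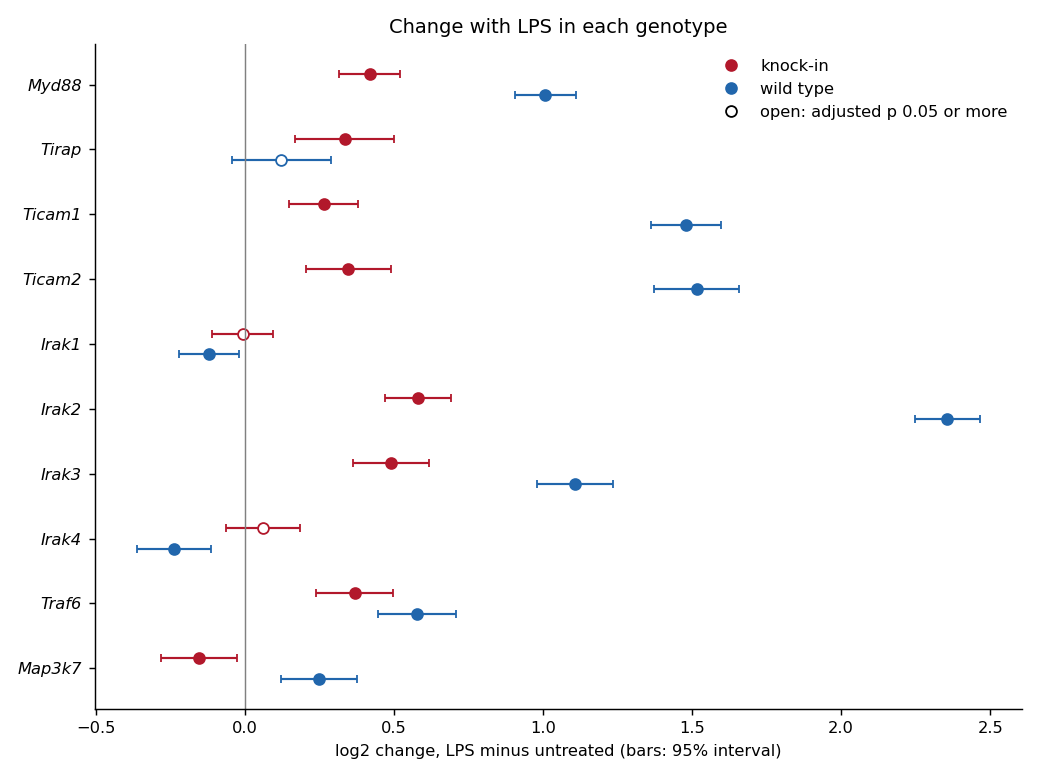
Log2 change with LPS (horizontal axis, LPS minus untreated, on log2 of the value plus 1) of each gene in the knock-in (upper point) and in wild type (lower point), with 95% intervals of the limma fit and open points where the adjusted p was 0.05 or more. Irak2, Ticam2, Ticam1, Irak3 and Myd88 lie at 1.01 to 2.36 in wild type and at 0.26 to 0.58 in the knock-in.

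Without LPS, no difference between knock-in and wild type passed limma for any of the 10 genes, and none had an unadjusted p under 0.05. Irak2 averaged 49.2 ± 0.226 in untreated knock-in cells and 48.4 ± 2.43 in untreated wild type (SD, n = 2 each), and Myd88 88.9 ± 0.940 and 86.8 ± 0.444. The differences ran from -0.16 for Tirap (limma adjusted p = 0.394) to 0.035 for Myd88 (limma adjusted p = 0.795). The 95% intervals of the 10 genes all lay within -0.32 to 0.14 on the log2 scale. For 4 of the 10 the groups did not overlap, where 43.9% of all genes tested did not. Over all genes tested, 0.00839% were called, which is 1 gene, and edgeR called 1 and DESeq2 64, none of them among the 10. At an unadjusted p under 0.05, limma had 1617 of the 11919 genes tested. Leaving out replicate 1 of untreated wild type raised the limma count over all genes to 483, still with 0 of the 10.

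With LPS, 7 of the 10 genes were lower in the knock-in than in wild type and 2 were higher, where 36.8% of all genes tested were lower and 38.5% higher. Irak2 stood farthest apart, at 72.7 and 75.4 in the knock-in with LPS, against 251 and 252 in wild type with LPS (log2 difference -1.75, limma adjusted p = 3.11e-19). Ticam1 (-1.23), Ticam2 (-1.202), Irak3 (-0.65), Myd88 (-0.55), Map3k7 (-0.43) and Traf6 (-0.28) were also lower, with limma adjusted p of 3.60e-04 for Traf6 and at most 9.81e-07 for the others. The Myd88 difference was -0.29 after quantile normalization. Irak4 was higher in the knock-in (0.27, limma adjusted p = 3.37e-04), at 47.4 and 48.6 against 40.3 and 39.0. Irak1 was higher by 0.11 (limma adjusted p = 0.0473, range over all alternatives 6.36e-06 to 0.232). Its call was lost with edgeR, DESeq2, median-of-ratios scaling and a robust trend, and without any 1 library other than those of untreated wild type, while quantile normalization gave 0.32. Tirap did not pass (0.056, 95% interval -0.11 to 0.22, limma adjusted p = 0.536). The groups did not overlap for 9 of the 10, where 87.4% of all genes tested did not. The median difference of the 10 genes was -0.49, beside 0.023 over all genes tested.

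**Figure D3:**
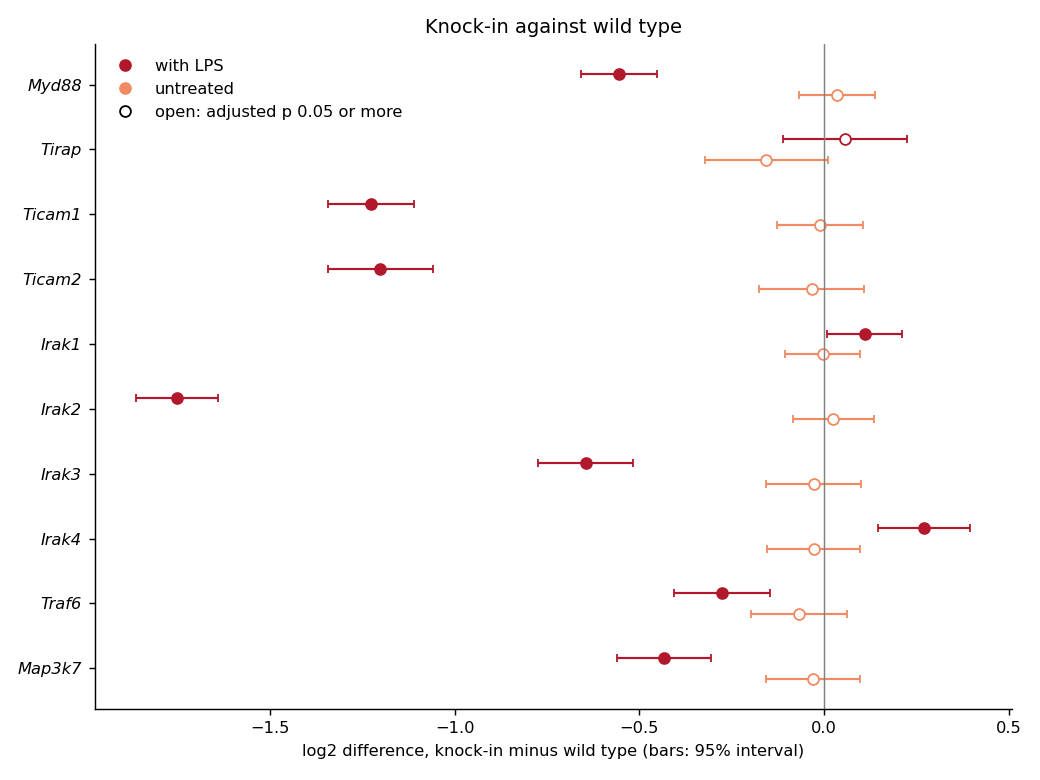
Log2 difference between knock-in and wild type (horizontal axis, knock-in minus wild type) with LPS (upper point) and untreated (lower point) for each gene, with 95% intervals of the limma fit and open points where the adjusted p was 0.05 or more. All untreated points are open and lie between -0.16 and 0.035, while those with LPS reach -1.75 for Irak2.

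The LPS effect itself differed between the genotypes for 8 of the 10 genes. By limma on the difference (knock-in effect less wild-type effect), it was smaller for Irak2 (-1.78, limma adjusted p = 5.63e-16), Ticam1 (-1.22), Ticam2 (-1.17), Irak3 (-0.62) and Myd88 (-0.59), each of these at a limma adjusted p of at most 1.66e-06. The Myd88 value was -0.33 after quantile normalization. For Map3k7 it was -0.40 (limma adjusted p = 3.02e-04) and for Irak4 0.30 (limma adjusted p = 0.00415). The called changes of Map3k7 had opposite signs, while Irak4 fell in wild type and was not called in the knock-in. Traf6 passed narrowly (-0.21, limma adjusted p = 0.0434, range over all alternatives 0.0136 to 0.219). The Traf6 call was lost after quantile normalization (-0.13) and without replicate 1 or 2 of either knock-in group, or replicate 2 of either wild-type group. Irak1 (0.11, limma adjusted p = 0.159) and Tirap (0.21, limma adjusted p = 0.107) did not pass, and Irak1 did after quantile normalization (0.32). Over all genes tested, 31.8% were called in each direction. Set beside the wild-type change on the log2 scale, the knock-in change was 17.8% for Ticam1, 22.9% for Ticam2, 24.6% for Irak2, 41.5% for Myd88, 44.3% for Irak3 and 63.8% for Traf6. All of these values rest on the knock-in LPS libraries, which differ from the other 6 in sex, and no fit without them can be made for them.

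Levels of different genes were compared per kilobase of annotated exon. In untreated wild type the order was Myd88 (33.7 CPM per kb), Irak1 (23.7), Ticam1 (17.0), Irak2 (10.96), Irak3 (10.7), Irak4 (9.34), Map3k7 (7.43), Ticam2 (5.90), Traf6 (4.54) and Tirap (3.61). Irak2 and Irak3 overlapped there, the one pair of neighbours to do so in any of the 4 groups, and the untreated knock-in gave the same order, with Myd88 at 34.5 and Tirap at 3.21. In knock-in cells with LPS the order changed only in that Ticam2 (7.38) stood above Map3k7 (6.53). In wild type with LPS, Irak2 (57.0) and Ticam1 (47.9) followed Myd88 (68.2), then Irak3 (23.3), Irak1 (21.8) and Ticam2 (17.2). The last places went to Map3k7 (8.87), Irak4 (7.89), Traf6 (6.83) and Tirap (3.95). With the longest annotated transcript as length, Irak2 came before Myd88 in wild type with LPS, Irak2 before Ticam1 in the knock-in with LPS, Irak4 before Irak3 in both untreated groups, and Irak4 before Map3k7 in wild type with LPS.

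The make-up of each family in wild type with LPS differed from that of the other groups, as a description with no test. Of the summed IRAK level per kb, Irak2 made up 25.3% and 26.6% in knock-in cells with LPS, against 20.5% and 20.4% untreated, and 51.9% and 51.8% in wild type with LPS, against 20.9% and 19.2% untreated. Irak1 made up 36.3% and 36.5% in knock-in cells with LPS, against 43.9% and 43.1% untreated, and 19.9% and 19.7% in wild type with LPS, against 42.9% and 43.9% untreated. Irak1 was thus the leading transcript of the family in 6 libraries and Irak2 in the 2 wild-type LPS libraries. Irak3 stayed between 19.1% and 23.9% in all 8 libraries, so the share of the braking member changed little although its level rose. Irak4 took 14.5% and 15.1% in knock-in cells with LPS and 7.33% and 7.02% in wild type with LPS, against 16.2% to 17.4% over the untreated libraries.

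Myd88 was the leading adaptor throughout. It made up 59.7% and 58.9% of the summed adaptor level per kb in knock-in cells with LPS, against 57.8% and 56.6% untreated, and 49.2% and 50.2% in wild type with LPS, against 56.1% and 55.9% untreated. Ticam1 took 25.0% and 27.0% in knock-in cells with LPS, against 27.6% and 28.1% untreated, and 35.8% and 34.0% in wild type with LPS, against 28.6% and 27.8% untreated. The share of the TRIF adaptor was thus higher with LPS in wild type and not in the knock-in libraries. Tirap took 2.79% and 2.96% in wild type with LPS and 5.25% to 6.15% in the other 6 libraries.

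**Figure D4:**
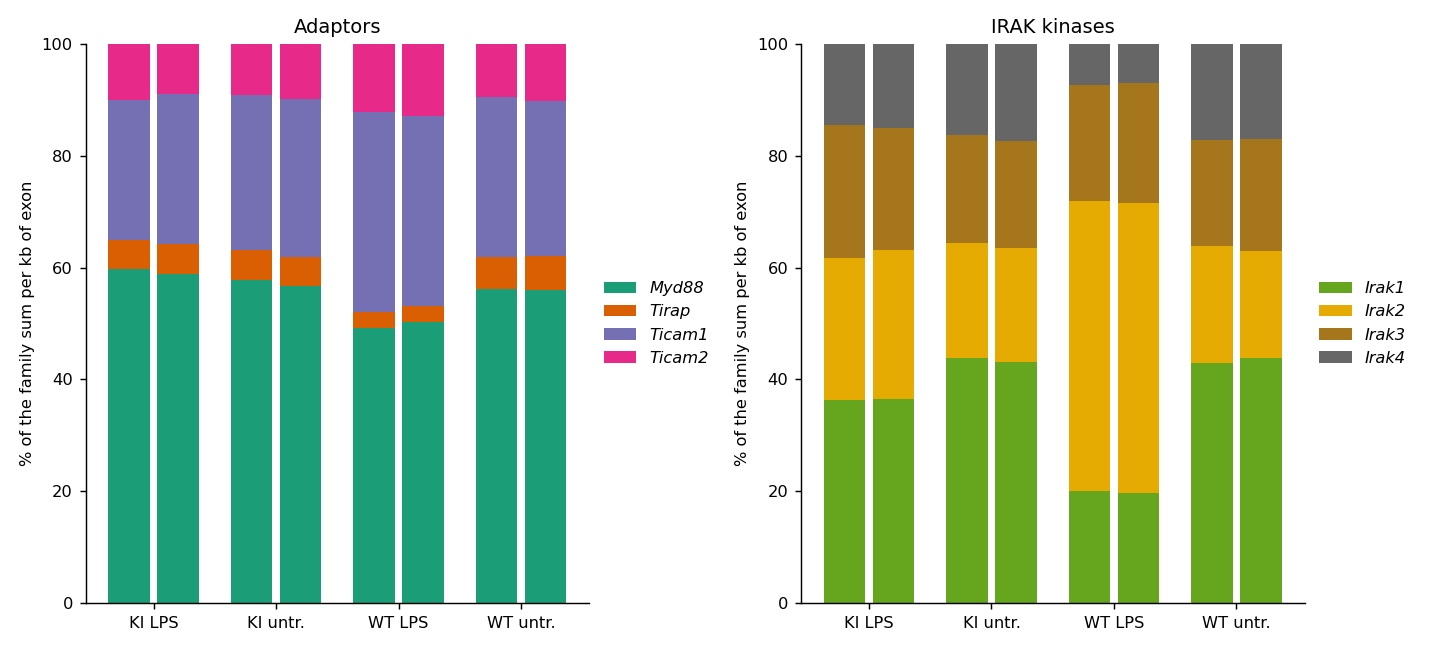
Share of each gene in the summed level per kb of exon (vertical axis, percent) of the 4 adaptors (left) and the 4 IRAK kinases (right), with 1 bar per library and the groups in the order knock-in with LPS, untreated knock-in, wild type with LPS and untreated wild type. Irak2 fills 51.9% and 51.8% of the IRAK bars in wild type with LPS and 19.2% to 26.6% of the others.

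Genes with the most similar pattern were sought for the 3 genes that changed most with LPS in wild type, by Pearson's r of the log2 values over the 8 libraries, which share 4 groups. For Irak2 these were Rhbdf2, Itga5 and Ccrl2 (r = 0.9994 to 0.9999), for Ticam2 Coq10b, Ube2f and Dnaja1 (0.998 to 0.999), and for Ticam1 Zc3h12a, Pim1 and Ssfa2 (0.998 to 0.999). Rhbdf2, which encodes an inactive rhomboid protein needed for TNF release, was at 83.9 and 87.7 in knock-in cells with LPS, against 58.4 and 58.4 untreated, and at 274 and 278 in wild type with LPS, against 58.6 and 56.5 untreated. Its levels thus moved in nearly the same steps as those of Irak2. Zc3h12a encodes the RNase Regnase-1, which destroys inflammatory transcripts. It was at 43.1 and 45.5 in knock-in cells with LPS, against 32.2 and 31.7 untreated, and at 249.3 and 251 in wild type with LPS, against 31.1 and 28.7 untreated. Among the 10 genes themselves, Ticam1 and Irak2 had r = 0.995 and Myd88 and Irak3 r = 0.994.

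The rest of the pathway was followed through 5 lists with 93 tested genes. Their counts stand beside the shares over all genes tested, 28.5% higher and 28.3% lower in the knock-in and 26.8% higher and 30.7% lower in wild type. Median log2 changes in the knock-in and in wild type were 0.24 and 0.094 for receptors, 0.16 and 0.43 for genes around TAK1 and IKK, 0.18 and 0.34 for restraining genes, 0.18 and 0.87 for transcription factors and 0.039 and 0.32 for bridging kinases, beside 0.016 and -0.032 over all genes. Of 19 receptors and co-receptors, 12 rose and 1 fell with LPS in the knock-in, and 8 rose and 6 fell in wild type. Cd14, which hands LPS to TLR4, was at 66.2 ± 1.57 in the knock-in with LPS, against 133 ± 4.38 untreated, and at 1385 ± 51.6 in wild type with LPS, against 129.5 ± 4.83 untreated (SD, n = 2 each). In the knock-in Tlr3 (log2 change 0.96), Tlr9 (0.90) and Cd180 (0.60) rose, and in wild type Tlr2 (4.08), Tlr1 (1.30) and Tlr6 (1.02). Without knock-in LPS replicate 1, 6 receptors in place of 12 rose in the knock-in, and after quantile normalization 2 in place of 1 fell.

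Of 25 genes of the TAK1 and IKK complexes and of ubiquitin enzymes around them, 12 rose and 2 fell in the knock-in, and 14 rose and 4 fell in wild type (8 fell after quantile normalization). Peli1, an E3 ligase that modifies IRAK proteins, was at 369 ± 0.471 in wild type with LPS, against 36.0 ± 1.16 untreated, and Birc3 (2.58) and Tank (2.10) rose there too. Tab1, a TAK1 partner, fell in wild type to 4.44 ± 0.241 with LPS, against 18.9 ± 1.94 untreated. In the knock-in Tank (0.95), Rnf31 (0.89), Ecsit (0.74) and Traf2 (0.67) changed most. Of the 2 lower calls there, 1 was left with no filter, median-of-ratios scaling, DESeq2, or without knock-in LPS replicate 2 or untreated knock-in replicate 2, and 0 without untreated knock-in replicate 1.

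Of 18 restraining genes, 11 rose and 3 fell in the knock-in, and 14 rose and 1 fell in wild type, or 9 and 5 after quantile normalization. The 1 lower call was lost by DESeq2 and without wild-type LPS replicate 1. Tnfaip3 (5.44), which encodes the ubiquitin-editing enzyme A20, Nfkbia (4.68), Dusp1 (3.93) and Tnip3 (3.53) rose most in wild type. In the knock-in Socs1 (1.24), Dusp1 (1.05) and Trafd1 (0.85) rose and Tnip3 fell by 0.63. Of 12 transcription factors at the end of the pathway, 7 rose and 1 fell in the knock-in (2 fell by edgeR, after quantile normalization, with only the groups compared, or without either untreated wild-type library), and 9 rose and 2 fell in wild type. The NF-kB subunit genes Rel (3.52), Nfkb2 (2.88), Relb (2.64) and Nfkb1 (2.16) led in wild type, and Irf7 (1.34), Jun (0.90), Atf3 (0.74) and Irf3 (0.45) in the knock-in.

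Of 19 bridging kinases and small GTPases, 4 rose and 5 fell in the knock-in, no larger a share in either direction than over all genes, and 12 rose and 2 fell in wild type. The 5 lower calls became 3 by DESeq2, with median-of-ratios scaling, and without knock-in LPS replicate 2 or either untreated knock-in library. In wild type the 2 lower calls became 1 by edgeR, DESeq2, median-of-ratios scaling or only the groups compared and without any 1 library other than replicate 1 of untreated wild type, and 8 after quantile normalization. The kinase Lyn (0.47) rose and Pik3cd (-0.45) and Mapk3 (-0.32) fell in the knock-in, and Src (2.90), Map2k3 (1.60), Syk (1.199) and Pik3r1 (0.72) rose in wild type. Between the untreated genotypes 0 of the 93 genes passed limma or edgeR, 1 passed DESeq2, 1 passed limma with a robust trend or without either wild-type LPS library, and 8 passed limma without replicate 1 of untreated wild type. The difference between LPS changes (knock-in less wild type) was called negative by limma for 4 and positive for 8 of the 19 receptors, 13 and 7 of the 25 genes around TAK1 and IKK, 10 and 3 of the 18 restraining genes, 8 and 2 of the 12 transcription factors, and 12 and 2 of the 19 bridging kinases, where 31.8% of all genes tested were called in each direction. These signs do not give the size of an effect, since a gene that fell less in the knock-in than in wild type counts as positive. After quantile normalization 5 restraining genes and 7 bridging kinases were positive. The 2 positive bridging kinases became 1 with no filter, median-of-ratios scaling, edgeR or DESeq2, and without any 1 library other than wild-type LPS replicate 2 or untreated wild-type replicate 1.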

How the data were processed

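The members and the gene lists were chosen with earlier results of these data known. The deposited table holds 23366 genes by 8 libraries as a signal: read counts that the authors divided by a scaled library size, which makes them TMM-scaled CPM. The scale was read off the table itself: 100.0% of those above 0 were whole multiples of 1 read within a tolerance of 0.001, which gave 40379258 to 55595160 reads per library. TopHat2 2.0.9, bedtools, edgeR and the build mm9 are named, per the submitters' processing notes. How reads were counted, on which strand and against which annotation is not given in the sources used here.

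Groups came from the sample titles. Values were tested as log2(value + 1) by limma (version 3.58.1, R 4.3.3; eBayes, variance trend, 2-sided) for genes at 1 or more in at least 2 libraries (11919 genes). A single model with 4 group means took in all 8 libraries, and p-values were adjusted by Benjamini-Hochberg over all genes tested in each of 5 comparisons. The script was tested on simulated data. Fold changes on this scale understate those of low genes. Every member was named in every comparison. Of each pathway list, up to 4 called members with the largest change were named. Some items that this rule would name are not reported here. For the 3 members with the largest change with LPS in wild type, the 3 named genes with the highest Pearson r over the libraries are given. The alternatives were another pseudocount (0.25), other filters (none, or 5 or more), quantile normalization, median-of-ratios scaling, edgeR 4.0.16 and DESeq2 1.42.0 on the recovered reads, a robust trend, a block for the replicate number, only the groups compared, and each library left out. Gene lengths and overlaps came from GENCODE vM21 on GRCm38, another build than mm9. Promoter windows came from RefSeq on GRCm38.p6.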

Additional observations from a re-analysis of the deposited data

Results flagged for a closer look

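The LPS effect differed between the genotypes for 8 of the 10 genes by limma's test of the difference (knock-in minus wild type, on the log2 scale). The difference was called negative for 7 and positive for 1 of the 10, where 31.8% of all genes tested were called in each direction. The differences were -1.78 for Irak2, -1.22 for Ticam1, -1.17 for Ticam2, -0.62 for Irak3, -0.59 for Myd88, -0.40 for Map3k7 and -0.21 for Traf6. For Irak4 the difference was 0.30, the one with a positive sign. All of them use the knock-in libraries with LPS, in which Xist was at 0.212 and 0.366, against 315 to 437 in the other 6 libraries. Sex thus goes with LPS within the knock-in and with genotype among the LPS libraries. In these values sex cannot be told apart from the labelled conditions, and the identity of the knock-in libraries with LPS is in doubt.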

How the results depend on the processing

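The number of the 10 genes called stayed within 1.5 times its value under every alternative: 7 to 8 for LPS in the knock-in, 8 to 9 for LPS in wild type, 8 to 9 for knock-in against wild type with LPS, 0 untreated, and 7 to 8 for the difference between the LPS effects. Of 890 alternative values of single genes, 839 kept their direction and their side of the threshold, 35 were no longer called, 1 became called and 15 changed sign. None of the sign changes was of a called value. They included Irak1 with LPS in the knock-in at 0.0046 under median-of-ratios scaling and 4.59e-04 by DESeq2, and Tirap with LPS between genotypes at -0.0036 after quantile normalization. With 1 library left out, Irak1 with LPS in the knock-in ranged from -0.022 to 0.0068. Tirap with LPS between genotypes ranged from -0.012 to 0.12, and its LPS change in the knock-in from 0.331 to 0.340. Untreated differences between genotypes then ranged from -0.032 to 0.024 for Irak1, -0.026 to 0.075 for Irak2, -0.072 to 0.013 for Irak3, -0.077 to 0.0199 for Irak4, -0.028 to 0.0064 for Ticam1 and -0.089 to 0.022 for Ticam2. Over all genes, the single untreated call became 64 by DESeq2, 18 with a robust trend, 12 with only the groups compared, 0 with no filter, and 1 to 483 with 1 library left out. The cause was not tested. A library that is left out leaves 1 in its group, which is then assumed to vary like the others.

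Libraries with the same replicate number shared little of their deviations, with correlations from -0.14 to 0.16 over the pairs of groups. With 2 libraries per group these correlations cannot decide whether the numbers pair the libraries, and the labels do not tell. The replicate block called 8 of the 10 genes for LPS in the knock-in, 9 in wild type, 9 between genotypes with LPS, 0 untreated and 8 for the difference between LPS effects, the same counts as without it. For the difference between LPS effects it called 1 bridging kinase positive in place of 2. Over all genes it called 6736, 6857, 8962, 1 and 7582. Shares per kb moved by up to 3.55 percentage points when the longest transcript was used as length. This setting was chosen after seeing the data.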
